A study of Mus musculus with 12 samples.

Results

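The genes described here are 10 mouse genes with BMP or GDF symbols that are active in skeletal tissue, Bmp1, Bmp2, Bmp3, Bmp4, Bmp5, Bmp6, Bmp7, Bmp8a, Gdf6 and Gdf10. They were selected by symbol from the 28244 genes listed in the deposited expression table, and all 10 were among the 17674 genes with enough signal to be tested. Their RNA was measured in pellets of mesenchymal progenitors of C57/BL6 pups aged 5 or 6 days, with no genetic modification given in the labels. The cells were taken from the heads and condyles of the femurs and the heads of the tibiae. Every pellet spent 7 days in chondrogenic medium. D7 pellets were collected at that point, and D8, D10 and D28 pellets were collected after 1, 3 and 21 further days in osteogenic medium. Each time point has 3 libraries, 12 in all. No pellets kept in chondrogenic medium after D7 are among these libraries, so the change of medium and the longer culture cannot be told apart. The sources used here do not say whether replicates came from separate cultures or animals, so the p-values measure only the spread between these libraries, which may be technical. The comparisons ask how the supply of BMP signals in the pellet changed when a cartilage-primed tissue was switched to bone-forming conditions.

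Bone morphogenetic proteins and growth differentiation factors are secreted dimers of the TGF-beta superfamily. They bind pairs of type I and type II serine/threonine kinase receptors, which phosphorylate Smad1, Smad5 and Smad9, and these move to the nucleus with Smad4 and switch on genes such as the Id family. In skeletal development they drive condensation, the growth and maturation of chondrocytes and the formation of bone. Secreted antagonists such as noggin and gremlin hold the ligands away from their receptors. The set is not uniform. Bmp1 is not a member of this ligand family but a tolloid-type metalloprotease that trims procollagens and cleaves the antagonist chordin, so 9 of the 10 genes encode ligands and 1 encodes a protease. Among the ligands, Bmp3 and Gdf10 (also called BMP3b) are atypical members that can oppose the signals of the others.

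Values are on the log2 scale, the log2 of an equalized read count plus 1, so a difference of 1 is a 2-fold change. A gene was called when it differed by at least 1 on this scale with an adjusted p under 0.05. Relative depth, read from the lowest values of each library, was between 0.790 and 1.06 at D7, 0.962 and 1.22 at D8, 0.730 and 1.05 at D10, and 1.20 and 1.31 at D28. The D28 libraries were thus deeper than those of D7 and D10 and overlapped those of D8. A value of 3 reads corresponded to at most 2.87 on the log2 scale, and of the 120 member values only Gdf6 in D8 replicate 2 lay at or under its library's 3-read level.

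The cell type markers moved as well. None of the 7 chondrocyte and 8 osteoblast markers examined was at or under 3 reads in all 3 libraries of a time point. Of the chondrocyte markers, 5 were called lower at D10 than at D7 and 4 higher at D28 than at D10, while Sox9, the master regulator of cartilage, had mean log2 values of 12.38 at D7, 12.44 at D10 and 12.25 at D28. Col2a1 made up 75.1% to 86.8% of the summed level of the chondrocyte markers. It had the same value in all libraries of a time point, 20.92 at D7 and D28 and 19.87 at D10. It is not among the called genes, and the sum is given without it. Without Col2a1 the summed unlogged level was 464229 to 483680 at D7, 357036 to 658583 at D8, 145941 to 191145 at D10 and 384554 to 451799 at D28. Of 5 hypertrophic chondrocyte markers, Ihh, Mmp13, Panx3 and Pth1r were called lower at D10 than at D7 and higher at D28 than at D10, as were Bmp1, Bmp3, Bmp4 and Bmp8a. Col10a1 went the other way, with mean log2 values of 17.27 at D7, 18.10 at D10 and 14.28 at D28, the last called lower than D10 and D7, as was Bmp7. Of the osteoblast markers, 3 were called higher and 4 lower at D10 against D7, and 4 higher at D28 against D10. Ibsp, with mean log2 values of 15.50 at D7, 9.15 at D10 and 14.01 at D28, and Alpl, with 13.40, 10.14 and 12.61, were lowest at D10, whereas Bglap, with 3.21, 6.46 and 8.98, rose. The D7 mean of Bglap (SD 1.08) was near the 3-read level. The summed level of 4 osteoclast markers was 4767 to 5770 at D7 and 11705 to 13126 at D10, where Bmp2 was highest, but 95.2% to 98.4% of it up to D10 was Ctsk, and Calcr was at or under 3 reads throughout. The sum of 6 adipocyte markers, all called higher at D28 than at D10 and at D7, was 6084 to 6647 at D7, 2475 to 2730 at D10 and 58171 to 80082 at D28. That of 6 skeletal muscle markers, all called lower at D28 than at D7, was 2630 to 3405 at D7 and 52.7 to 136 at D28, where Myod1 and Myh3 were at or under 3 reads. In pellets, fewer cells of a type and less RNA per cell cannot be told apart, and the part of these marker shifts and of depth in the member results was not tested.

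Most of the genes moved during the protocol, and they moved along different courses. Bmp2 was called higher at D10 than at D7, whereas Bmp8a, Gdf10, Bmp1, Bmp4 and Bmp3 were called lower. By D28 the pellets held more Bmp4, Bmp3 and Gdf6 RNA and less Bmp7, Bmp8a and Gdf10 RNA than at D7, while the D28 libraries of Bmp2 lay on both sides of its D7 range. Bmp5 and Bmp6 were called in none of the 5 comparisons. In total 8 of the 10 members, 80.0%, were called in at least 1 comparison, against 6753 of all 17674 tested genes, 38.2%.

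**Figure D1:**
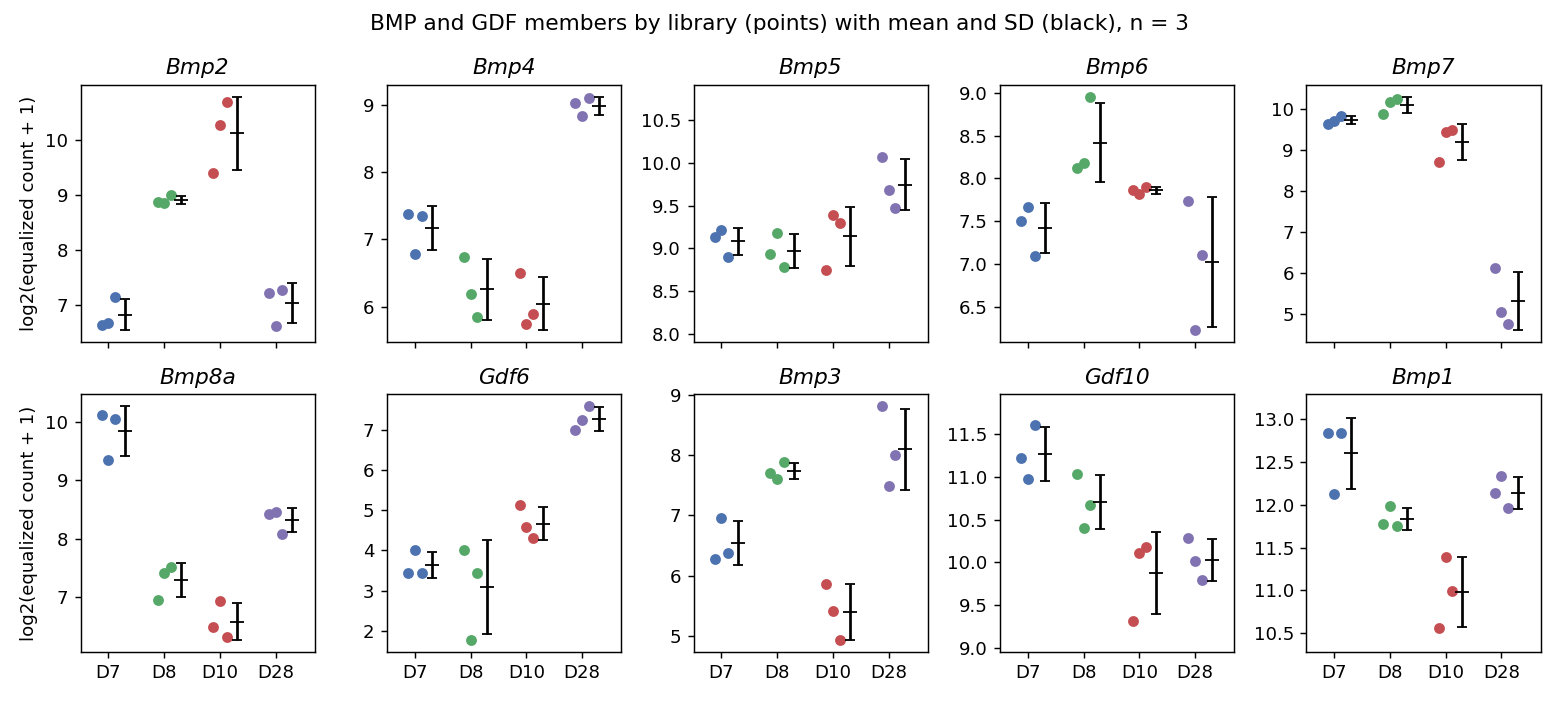
Log2 value of each of the 10 genes in each of the 12 libraries, by time point, with 1 coloured point per library and the mean ± SD of 3 libraries in black beside them. Bmp2 is highest at D10, Bmp7 drops at D28, Bmp8a is highest at D7, Gdf6 is highest at D28 and Bmp5 stays within 1.32 log2 units throughout.

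Bmp2 encodes a potent osteogenic ligand that is required for fracture repair. The gene lies on the plus strand at chr2:133552159-133562885 (GRCm38, GENCODE M21). Its log2 values were 6.65, 6.69 and 7.15 at D7, 8.87, 8.85 and 9.00 at D8, 9.39, 10.27 and 10.68 at D10, and 7.22, 6.62 and 7.27 at D28. The libraries of D7, D8 and D10 stood in 3 separate ranges, each above the one before, and those of D28 overlapped D7. Bmp2 rose by 2.08 on the log2 scale from D7 to D8, 4.22-fold (SE 0.27, limma adjusted p = 7e-05). It rose by a further 1.21 from D8 to D10 (adjusted p = 0.0034), a step that became 0.92, under the fold threshold, without D10 replicate 3. From D7 to D10 the rise came to 3.29, 9.75-fold (adjusted p = 1.6e-07). Between D10 and D28 it fell by 3.08, 8.43-fold (adjusted p = 1.4e-07), to a level 0.21 above that of D7 with a 95% interval of -0.36 to 0.78 (adjusted p = 0.58). Ordered by level, D28 and D7 were lowest and did not differ beyond their spread, followed by D8 and then D10.

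Bmp8a showed nearly the opposite early course. It encodes a ligand studied mainly in the germ line and brown fat, and it lies on the minus strand at chr4:123312645-123343252. Log2 values of Bmp8a were 10.12, 9.34 and 10.05 at D7, 6.96, 7.42 and 7.52 at D8, 6.50, 6.93 and 6.33 at D10, and 8.43, 8.46 and 8.09 at D28. No library of D8, D10 or D28 reached the lowest D7 value, and every D28 library lay above every D8 and D10 library. Bmp8a fell by 2.54 within 1 day of the switch, 5.81-fold (SE 0.23, limma adjusted p = 3.4e-06). It was 3.25 lower at D10 than at D7, 9.52-fold, rose by 1.74 from D10 to D28, and was still 1.51 below D7 at the end, 2.85-fold (adjusted p = 3.5e-08, 1e-05 and 7.6e-05 in that order). The difference of -0.71 between D8 and D10 had an adjusted p of 0.028 and was under the fold threshold. The Bmp8a interval also holds Oxct2a on the same strand, whose values ran from 0 to 5.59, and the near-identical paralog Bmp8b was between 0 and 3.45, with 10 of 12 libraries at or under 3 reads. How reads shared by such genes were assigned is not given in the sources used here.

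Bmp7 fell late. This ligand is known for its roles in kidney, eye and bone, and it lies on the minus strand at chr2:172868012-172940321. Its log2 values were 9.63, 9.72 and 9.83 at D7, 9.89, 10.19 and 10.26 at D8, 8.70, 9.43 and 9.48 at D10, and 6.13, 5.06 and 4.76 at D28. The highest D28 library lay 2.57 under the lowest library of any other time point. Bmp7 fell by 3.89 from D10 to D28, 14.8-fold (SE 0.28, limma adjusted p = 1.8e-08), and by 4.41 from D7 to D28, 21.3-fold (adjusted p = 1.3e-08). No other member had a larger fall in these comparisons. Earlier differences were not called. They were 0.38 from D7 to D8 (95% interval -0.21 to 0.97), -0.90 from D8 to D10 (adjusted p = 0.024) and -0.52 from D7 to D10 (95% interval -1.11 to 0.07). Without D8 replicate 1, D10 replicate 2 or D10 replicate 3, the D10 against D8 difference passed the fold threshold, at -1.01, -1.02 and -1.04.

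Bmp4, a ligand with essential roles in mesoderm and limb formation, followed a shallow dip and a late rise. The gene lies on the minus strand at chr14:46383520-46390669. Bmp4 values were 7.38, 6.79 and 7.34 at D7, 6.74, 6.18 and 5.85 at D8, 6.50, 5.74 and 5.90 at D10, and 9.02, 8.83 and 9.09 at D28 on the log2 scale. The 3 D28 libraries lay within 0.27 of each other and lay above every other library. Bmp4 rose by 2.93 from D10 to D28, 7.64-fold (SE 0.26, limma adjusted p = 1.7e-07), and ended 1.81 above D7, 3.51-fold (adjusted p = 4.9e-05). The early fall between D7 and D10 was 1.12 (adjusted p = 0.0025), and it was -0.97 and not called without D10 replicate 2. D8 and D10, the lowest in order, overlapped and differed by -0.21 with a 95% interval of -0.76 to 0.33. The D8 against D7 difference of -0.91 (adjusted p = 0.02) was under the fold threshold, and it was called at -1.10 without D7 replicate 2 and at -1.15 without D8 replicate 1.

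Gdf6, which helps to set joint and tendon boundaries and is also known as BMP13, had the lowest level per kilobase of exon of all members at D7 and D8. It lies on the plus strand at chr4:9844372-9862345. The log2 values were 3.45, 4.00 and 3.45 at D7, 4.02, 1.77 and 3.45 at D8, 5.12, 4.57 and 4.31 at D10, and 6.99, 7.24 and 7.59 at D28. At D7 these stood for 7 to 16 reads, and the lowest D8 library for 2 reads, so counting error is large there. Every D28 library lay above every earlier one. Gdf6 rose by 2.61 from D10 to D28, 6.09-fold (SE 0.48, limma adjusted p = 0.0003), and by 3.64 from D7 to D28, 12.5-fold (adjusted p = 2.4e-05). The call of a rise of 1.59 from D8 to D10 (adjusted p = 0.022) rested on D8 replicate 2. Without that library it was 0.93 (adjusted p = 0.1), and without D10 replicate 1 it was 1.36 (adjusted p = 0.085). From D7 to D10 the difference was 1.04 (adjusted p = 0.1) and was not called. It was called without D8 replicate 2 (limma adjusted p = 0.028), and also by the study's own rule, which asks for a difference of at least 1 and sets its limit on unadjusted p-values.

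Of the atypical ligands, Bmp3 went up, down and up again. BMP3 limits bone density and does not activate the usual Smads, and its gene lies on the plus strand at chr5:98854415-98884396. Bmp3 log2 values were 6.28, 6.96 and 6.38 at D7, 7.71, 7.61 and 7.88 at D8, 5.85, 5.41 and 4.93 at D10, and 8.82, 7.49 and 8.00 at D28. D10 was the lowest group and did not overlap any other, while D8 and D28, the highest, overlapped. Bmp3 rose by 1.19 from D7 to D8 (SE 0.31, limma adjusted p = 0.013), fell by 2.34 from D8 to D10, 5.05-fold (adjusted p = 8.2e-05), and rose by 2.70 from D10 to D28, 6.50-fold (adjusted p = 3.1e-06). It ended 1.56 above D7, 2.94-fold (adjusted p = 0.001). The smaller steps were less firm. The D8 rise had an adjusted p of 0.06 without D7 replicate 1. The fall of 1.14 from D7 to D10 (adjusted p = 0.0081) was -0.93 without D7 replicate 2 and -0.91 without D10 replicate 3, both under the fold threshold.

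Gdf10 declined and stayed down. It lies on the plus strand at chr14:33923587-33937983. Log2 values of Gdf10 were 11.22, 10.97 and 11.60 at D7, 11.03, 10.40 and 10.67 at D8, 9.32, 10.11 and 10.18 at D10, and 10.28, 10.02 and 9.79 at D28. D7 and D8 overlapped, D10 and D28 overlapped, and every library of the later pair lay under every library of the earlier pair. Gdf10 fell by 1.39 from D7 to D10, 2.62-fold (SE 0.22, limma adjusted p = 0.00013), and by 1.23 from D7 to D28, 2.35-fold (adjusted p = 0.00042). The D28 against D10 difference was 0.16 with a 95% interval of -0.32 to 0.63.

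Bmp5 and Bmp6, ligands of the same subgroup as Bmp7 and Bmp8a, were called in no comparison. Bmp5, whose loss in mice shortens the ear and alters skeletal elements, lies on the plus strand at chr9:75775364-75900310 and read 9.13, 9.21 and 8.91 at D7, 8.93, 9.18 and 8.79 at D8, 8.75, 9.39 and 9.30 at D10, and 10.07, 9.69 and 9.48 at D28. The first 3 time points overlapped and D28 lay just above them. Its difference from D7 to D10 was 0.061 with a 95% interval of -0.33 to 0.45, and the difference of 0.66 from D7 to D28 (limma adjusted p = 0.0094, 95% interval 0.27 to 1.05) was under the fold threshold. Bmp6, which is also known as the main signal for hepcidin in liver, lies on the plus strand at chr13:38345107-38500302. Bmp6 values were 7.50, 7.67 and 7.09 at D7, 8.12, 8.18 and 8.95 at D8, 7.86, 7.82 and 7.90 at D10, and 7.74, 6.23 and 7.11 at D28. Its D8 libraries were above all others, and its D28 libraries spread over 1.51 and overlapped D7. The D8 against D7 difference was 0.997 (SE 0.31, limma adjusted p = 0.03), just short of the fold threshold, and it was called at between 1.12 and 1.14 without D7 replicate 2, D8 replicate 1 or D8 replicate 2. The D28 against D10 difference of -0.83 (adjusted p = 0.032) was called at -1.19 without D28 replicate 1. Txndc5, on the opposite strand within the Bmp6 interval, was far more abundant at 12.24 to 13.49. The library kits preserved strand, but the strand setting of the counting is not given in the sources used here, so whether opposite-strand reads entered the Bmp6 values was not tested. The same holds for Bmp4 and Bmp5, which overlap predicted genes on the opposite strand in GENCODE. Bmp5 also overlaps the predicted gene Gm47723 on its own strand, whose reads no strand setting separates.

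Bmp1, the protease, was lower at D10 and higher again at D28. It lies on the minus strand at chr14:70474558-70520234. The Bmp1 log2 values were 12.84, 12.12 and 12.83 at D7, 11.77, 11.99 and 11.76 at D8, 10.56, 11.39 and 11.00 at D10, and 12.13, 12.33 and 11.96 at D28. D10 was lowest and apart from the rest, and D7 and D28, the highest, overlapped. Bmp1 fell by 1.61 from D7 to D10, 3.06-fold (SE 0.20, limma adjusted p = 1.2e-05), and rose by 1.16 from D10 to D28, 2.23-fold (adjusted p = 0.00017). The rise was 0.95, under the fold threshold, without D10 replicate 1. At D28 it was -0.46 from D7 with a 95% interval of -0.89 to -0.03 (adjusted p = 0.087).

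Read by comparison, 3 members were called at D8 against D7, Bmp2 and Bmp3 higher and Bmp8a lower, where 7.04% of all tested genes were called, 3.23% higher and 3.81% lower. At D10 against D8, 3 members were called, Bmp2 and Gdf6 higher and Bmp3 lower, with a background of 9.66% (4.08% higher, 5.58% lower). At D10 against D7, 1 was called higher and 5 lower, with a background of 18.9% (8.50% higher, 10.4% lower). At D28 against D10, 5 members were called higher, Bmp4, Bmp3, Gdf6, Bmp8a and Bmp1, and 2 lower, Bmp7 and Bmp2, with a background of 27.5% (13.8% higher, 13.7% lower). At D28 against D7, 3 were called higher and 3 lower, with a background of 17.3% (8.63% higher, 8.66% lower). The share of members called was above the background in each comparison. Single libraries moved all but the last of these counts. That at D8 against D7 went to 5 without D7 replicate 2 or D8 replicate 1 and to 2 without D7 replicate 1. That at D10 against D8 went to 5 without D10 replicate 2 and to 2 without D8 replicate 2 or D10 replicate 1. With 1 library left out, D10 against D7 gave 5 to 7, D28 against D10 gave 6 to 8 and D28 against D7 gave 6. These comparisons share libraries, so their counts are not separate evidence.

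The medians of the member differences were -0.33 at D8 against D7, -0.63 at D10 against D8, -0.82 at D10 against D7, 0.88 at D28 against D10 and -0.09 at D28 against D7. Over all tested genes the medians were 0.03, 0, 0.05, -0.10 and -0.03 in that order. Libraries did not overlap between the time points for 7, 8, 9, 9 and 7 members, against 37.1%, 44.0%, 47.5%, 59.4% and 46.9% of all tested genes. The range of a gene's mean over the 4 time points had a median of 0.98 over all tested genes. For the members it was 4.79 for Bmp7, 4.19 for Gdf6, 3.29 for Bmp2, 3.25 for Bmp8a, 2.93 for Bmp4 and 2.70 for Bmp3, at percentiles between 90.1 and 98.1 of all tested genes. It was 1.61 for Bmp1, 1.39 for Gdf10 and Bmp6, and 0.78 for Bmp5, the last at percentile 38.8.

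**Figure D2:**
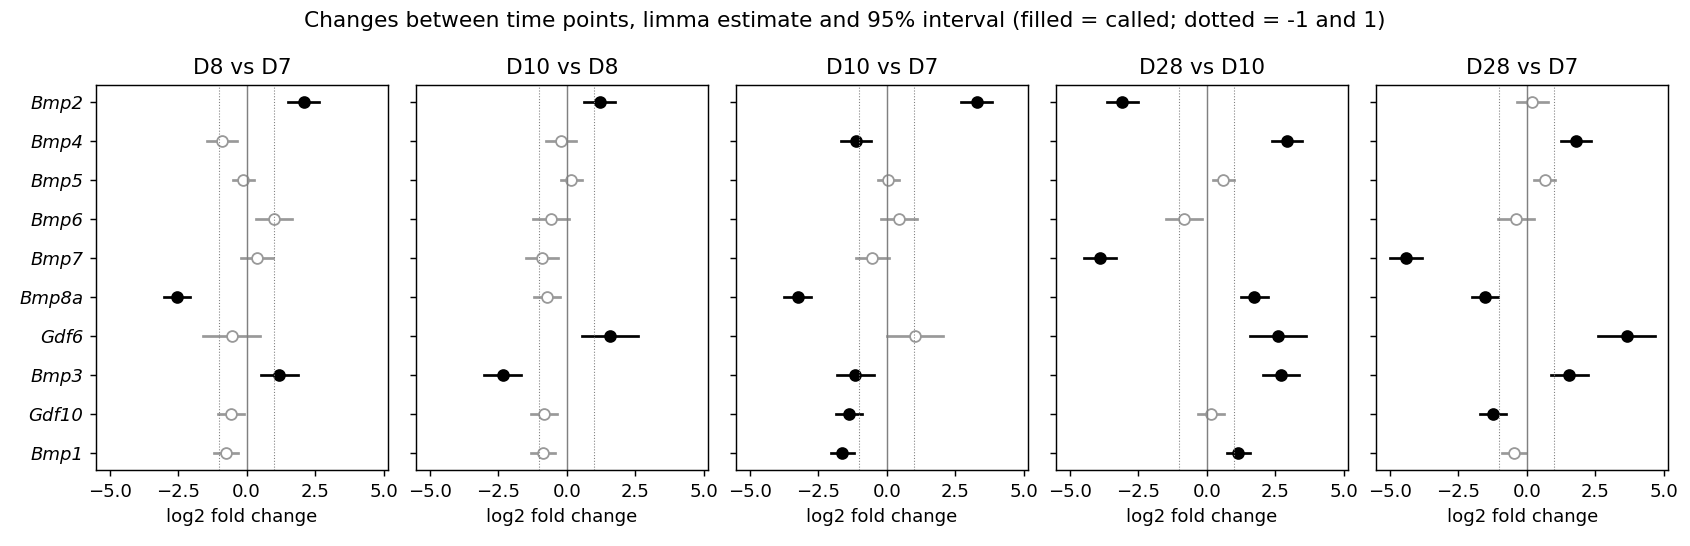
Log2 difference of each gene in the 5 comparisons, as the limma estimate with its 95% interval, with filled markers for called genes and dotted lines at the fold threshold of 1 in each direction. Bmp2 and Bmp7 have the largest falls from D10 to D28, at -3.08 and -3.89, while Bmp4, Bmp3 and Gdf6 rise by 2.93, 2.70 and 2.61.

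To compare genes with each other, levels were taken as unlogged equalized counts per kilobase of exon. At D7 the mean level per kilobase was 716 for Bmp1, 479 for Gdf10, 391 for Bmp8a, 211 for Bmp7 and 135 for Bmp5, and between 3.29 and 64.7 for the other members. The first 3 overlapped between neighbours, and Bmp8a did not overlap Bmp7. At D10 Bmp2 had the highest mean level per kilobase, 333, but its libraries overlapped those of Bmp1 at 234, which overlapped those of Gdf10 at 186. At D28 Bmp1 led at 511 without overlap, followed by Bmp4 at 225, Bmp5 at 216 and Gdf10 at 202, each overlapping the next, and Bmp7 was lowest at 10.6. Gdf6 was the lowest gene at D7 and D8, at 3.29 and 2.60 per kilobase, and was among 4 overlapping genes between 36.2 and 44.2 at D28.

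The 9 ligands without Bmp1 summed to 1373 ± 193 equalized counts per kilobase at D7, then 1083 ± 53.0 at D8, then 955 ± 249 at D10 and 945 ± 123 at D28 (mean ± SD, n = 3). All 3 D7 sums lay above the rest, and those of D8, D10 and D28 overlapped. The Bmp2 share of the sum was 2.34% ± 0.326 at D7, then 12.5% ± 0.349 at D8, then 33.9% ± 6.19 at D10 and 3.97% ± 0.899 at D28. Bmp8a held 28.1% ± 4.72 at D7, then 6.09% ± 1.20 at D8, then 4.41% ± 1.37 at D10 and 14.2% ± 2.18 at D28. Bmp7 made up 15.6% ± 2.17 at D7, then 25.5% ± 3.53 at D8, then 15.8% ± 0.635 at D10 and 1.08% ± 0.441 at D28. At D7 the RNA of these 9 ligands was thus mostly Gdf10 and Bmp8a, and at D10 Bmp2 was the largest share. At D28 Bmp4 with 24.0% ± 3.36, Bmp5 with 22.7% ± 2.24 and Gdf10 with 21.4% ± 1.76 were nearly level. Further ligands are not in the sum, such as Gdf15, with a mean log2 value of 12.86 at D10 against 10.12 for Bmp2. Shares of a sum move together by construction, so a rise of 1 share lowers the others. Protein was not measured.

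**Figure D3:**
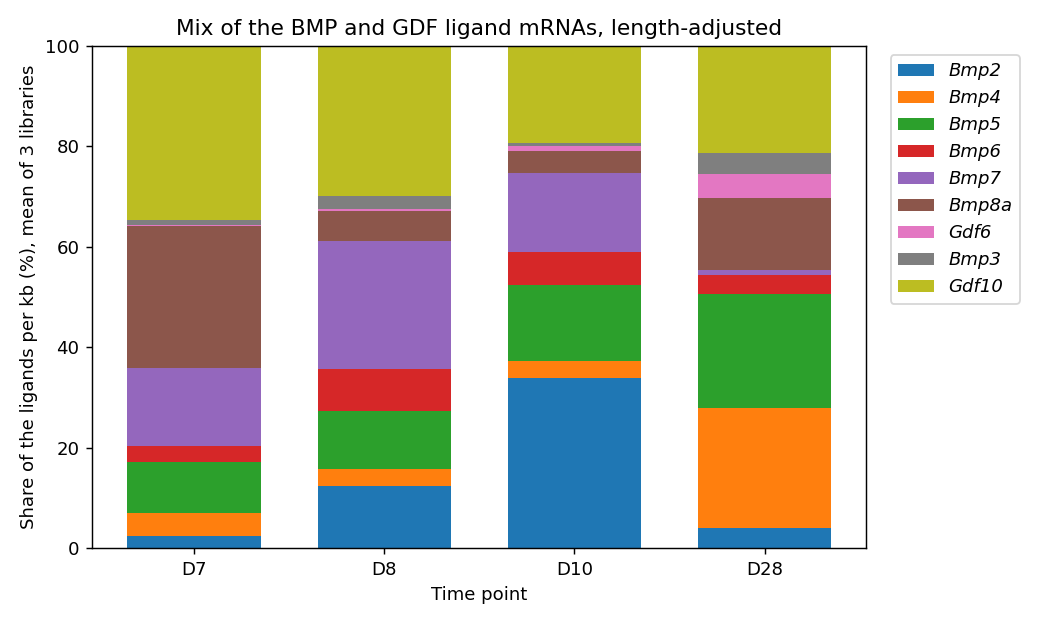
Share of each of the 9 ligands in their summed equalized count per kilobase of exon, as the mean of 3 libraries per time point. The Bmp2 share is 2.34% at D7 and 33.9% at D10, the Bmp8a share 28.1% at D7 and 4.41% at D10, and the Bmp7 share 1.08% at D28.

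Promoter sequence is shown for 4 members of differing course, so that their base composition and motifs can be set beside the values above. RefSeq windows (GRCm38.p6) matched 5 of the 10 members, Bmp4, Bmp5, Bmp6, Bmp8a and Gdf10. Each sequence below runs 5′ to 3′ on the gene's strand from 250 to 2 bases before the annotated start, 249 bases, and capitals mark motif matches. They are Bmp8a, which fell at once, at chr4:123343254-123343502 on the minus strand, Bmp4, which rose late, at chr14:46390671-46390919 on the minus strand, Gdf10, which fell and stayed low, at chr14:33923337-33923585 on the plus strand, and Bmp5, which was called in no comparison, at chr9:75775115-75775363 on the plus strand.
Bmp8a: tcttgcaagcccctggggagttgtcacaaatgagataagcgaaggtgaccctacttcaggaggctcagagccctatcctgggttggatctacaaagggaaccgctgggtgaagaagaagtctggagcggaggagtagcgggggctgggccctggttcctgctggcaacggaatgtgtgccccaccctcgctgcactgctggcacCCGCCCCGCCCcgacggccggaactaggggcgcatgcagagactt
Bmp4: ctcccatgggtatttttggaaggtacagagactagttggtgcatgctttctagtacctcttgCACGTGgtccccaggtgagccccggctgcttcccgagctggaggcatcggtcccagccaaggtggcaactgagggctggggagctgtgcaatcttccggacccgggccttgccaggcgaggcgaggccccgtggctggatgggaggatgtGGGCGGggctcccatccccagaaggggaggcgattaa
Gdf10: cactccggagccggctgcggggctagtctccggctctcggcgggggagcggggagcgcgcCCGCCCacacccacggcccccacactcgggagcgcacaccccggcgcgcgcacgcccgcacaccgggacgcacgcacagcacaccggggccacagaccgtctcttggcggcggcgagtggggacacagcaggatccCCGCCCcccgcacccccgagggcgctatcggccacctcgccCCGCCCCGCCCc
Bmp5: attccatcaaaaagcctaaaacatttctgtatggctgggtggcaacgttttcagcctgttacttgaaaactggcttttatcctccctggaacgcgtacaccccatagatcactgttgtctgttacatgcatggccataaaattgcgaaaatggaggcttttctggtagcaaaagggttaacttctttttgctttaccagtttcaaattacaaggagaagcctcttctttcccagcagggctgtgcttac

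The motifs searched on both strands were the GC box GGGCGG, the TATA box TATAAA, the E-box CACGTG, the AP-1 site TGACTCA, the CRE TGACGTCA, the Runx site TGTGGT, the GC-rich Smad site GGCGCC and the glucocorticoid receptor core site AGAACA. Bmp8a held 2 GC boxes on the opposite strand, whose letters overlap at the capitals, 46 and 41 bases before the start. Gdf10 held 4, at 190, 54, 13 and 8 bases, the last 2 of which also overlap. Bmp4 held 1 GC box at 38 bases and 1 E-box at 188 bases, and Bmp5 held none of the 8 motifs. Over the 32851 windows of the table, 32.6% held the GC box, 12.4% the TATA box, 6.00% the E-box, 4.45% the AP-1 site, 1.54% the CRE, 14.0% the Runx site, 9.52% the Smad site and 16.0% the core site. GC content was 79.12% for Gdf10, 63.05% for Bmp4, 61.85% for Bmp8a and 42.97% for Bmp5, against a median of 52.21% over all windows. A match to these letters is a description and not a binding site, and a lack of one says only that the letters are not in this window.

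The other genes of the pathway were counted in the same fit, where 7.04% of all tested genes were called at D8 against D7, 18.9% at D10 against D7, 27.5% at D28 against D10 and 17.3% at D28 against D7. Of 12 further BMP and GDF ligands, 8 were tested, of which 1 was called higher at D8 against D7, 1 higher at D10 against D8, 2 higher at D10 against D7, 1 higher and 3 lower at D28 against D10, and 1 higher and 1 lower at D28 against D7. Gdf5, a joint-forming ligand, had mean log2 values of 9.49 ± 0.11, 9.89 ± 0.18, 9.35 ± 0.53 and 7.29 ± 0.15 (SD, n = 3) at D7, D8, D10 and D28. Like Bmp7 it fell late, by 2.06 from D10 to D28 (SE 0.20, limma adjusted p = 4.9e-07). Gdf15, a stress-induced and divergent family member, rose with Bmp2, by 4.29 from D7 to D10 (SE 0.33, adjusted p = 8.9e-08), and fell by 3.04 from D10 to D28 (adjusted p = 1.5e-06). Of 3 activin genes tested, Inhba, which encodes the activin A subunit, rose by 1.91 from D7 to D10 (adjusted p = 5.4e-08) and fell by 3.73 from D10 to D28 (SE 0.14, adjusted p = 1.4e-11).

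Among 12 receptors and co-receptors, of which 11 were tested, 1 was higher and 3 were lower at D10 against D7, 4 were higher at D28 against D10, and 1 was higher at D28 against D7, the last a smaller share than that of all tested genes. None of the 11 was called by limma at D8 against D7 or at D10 against D8, where 7.04% and 9.66% of all tested genes were, although 5 and 7 of them had an unadjusted p under 0.05, and the study's own rule called 0 in both. Acvrl1, a type I receptor best known in endothelium, fell by 1.33 from D7 to D10 (SE 0.23, adjusted p = 0.00024) and rose by 2.84 from D10 to D28 (adjusted p = 6.6e-08). The co-receptors Rgma and Eng fell by 1.25 and 1.10 and then rose by 1.01 and 1.37 over the same intervals, though the fall of Eng was -0.95 without D7 replicate 3 and -0.98 without D10 replicate 1, under the fold threshold. The rise of Rgma was 0.95 without D10 replicate 1, 0.999 without D10 replicate 3 and 0.997 without D28 replicate 1, also under it. Tgfbr3, which encodes betaglycan, rose by 1.65 from D10 to D28.

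Secreted antagonists bind the ligands outside the cell. Of 18 listed, 16 were tested, of which 2 were called higher and 5 lower at D8 against D7, 6 lower at D10 against D8, 2 higher and 10 lower at D10 against D7, 8 higher and 1 lower at D28 against D10, and 4 higher and 4 lower at D28 against D7. Their median difference was -1.81 at D10 against D7, against 0.05 for all tested genes, and 1.16 at D28 against D10, against -0.10. The lower calls of Fst and Chrdl2 at D8 against D7 were lost without D8 replicate 2, at -0.968 and -0.971, under the fold threshold. That of Fst was also lost without D7 replicate 3, and that of Chrdl2 without D8 replicate 1. Noggin, Nog, which binds BMP2, BMP4 and BMP7, had mean log2 values of 10.44 ± 0.09 at D7, then 9.02 ± 0.47 at D8, then 6.80 ± 0.17 at D10 and 10.01 ± 0.30 at D28 (SD, n = 3). It fell by 3.64 from D7 to D10, 12.5-fold (SE 0.20, limma adjusted p = 3.5e-09), the interval in which Bmp2 rose. Chrdl2, a chordin-like antagonist, fell by 4.78 over that interval (adjusted p = 4.3e-10) and rose by 3.94 from D10 to D28. Follistatin, Fst, fell by 2.36 and then rose by 4.76, 27.1-fold (SE 0.19, adjusted p = 3.1e-11). Grem1 took the other course and rose, from 10.81 ± 0.09 at D7 to 12.32 ± 0.15 at D8, then 12.54 ± 0.06 at D10 and finally 14.15 ± 0.25 at D28, a total of 3.34 (SE 0.12, adjusted p = 5.7e-11).

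**Figure D4:**
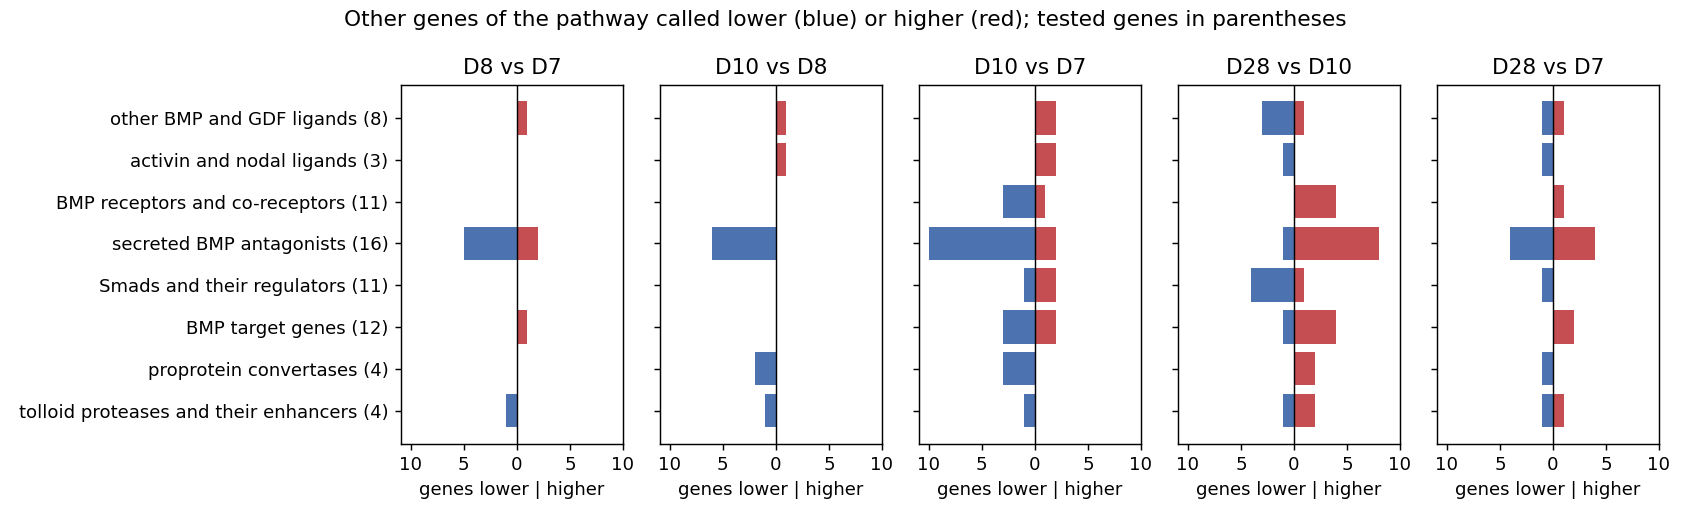
Number of tested genes called higher (red bars to the right) and lower (blue bars to the left) in each pathway list for the 5 comparisons. Among 16 secreted antagonists, 10 are lower at D10 against D7 and 8 are higher at D28 against D10.

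Downstream of the receptors, 12 BMP target genes gave 1 call at D8 against D7, 2 higher and 3 lower calls at D10 against D7, 4 higher and 1 lower at D28 against D10, and 2 higher at D28 against D7. At D10 against D8 limma called none of them, with 6 at an unadjusted p under 0.05 and 0 called by the study's own rule. Id3, a direct Smad target, had mean log2 values of 11.10 ± 0.32, 10.62 ± 0.16, 9.69 ± 0.44 and 11.93 ± 0.27 (SD, n = 3) at D7, D8, D10 and D28. It fell by 1.42 from D7 to D10 (SE 0.20, limma adjusted p = 4.8e-05) while Bmp2 rose, and rose by 2.24 from D10 to D28 (adjusted p = 2.3e-07). Id4 ended 2.97 above D7 (SE 0.30, adjusted p = 1.4e-06). Smad7, an inhibitory Smad that TGF-beta also induces, rose by 1.11 from D7 to D10 (SE 0.15, adjusted p = 2.4e-05) and fell by 1.35 from D10 to D28. Of 11 Smads and regulators, which share 3 genes with the targets, 2 were higher and 1 lower at D10 against D7, and 1 was higher and 4 lower at D28 against D10, among the latter Smurf1, Smurf2 and Skil at -1.56, -1.23 and -2.32. Of these 11, limma called none at D8 against D7 or at D10 against D8, with 7 and 6 at an unadjusted p under 0.05 and 0 called by the study's own rule, and it called 1 lower at D28 against D7.

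Processing enzymes for the ligands were measured too. Of 4 proprotein convertases, which cut the ligand precursors, 2 were lower at D10 against D8 and 3 were lower at D10 against D7, Pcsk6 by 2.52 (SE 0.27, limma adjusted p = 2.5e-06), Pcsk5 by 1.68 and Furin by 1.16. At D28 against D10 Pcsk6 was higher by 1.37 and Pcsk5 by 1.06, but the former was 0.92 without D28 replicate 1 and the latter 0.88 without D28 replicate 2 and 0.97 without D28 replicate 3, under the fold threshold. Pcolce, an enhancer of the procollagen-trimming activity of BMP1, fell by 2.39 from D7 to D10 (SE 0.21, adjusted p = 3.7e-07) and rose by 2.52 from D10 to D28 (adjusted p = 9.6e-08). Tll1, a protease related to BMP1, did not share this late course and fell by 2.41 from D7 to D28 (adjusted p = 3.8e-07). Tll2 was at or under 3 reads in every library of D7, D8 and D10 and gives no fold.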

How the data were processed

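RNA of the 12 pellet libraries was prepared with stranded poly-A kits and sequenced in pairs. The labels describe 2 such kits, with different amounts of input RNA, without saying which library was made with which, so a difference in preparation between libraries was not tested. The supplementary methods name only the Stranded mRNA Prep ligation kit. Per the supplementary methods and the submitters' processing notes (Trimmomatic 0.36, HISAT2, Cufflinks, HTSeq), the authors aligned and counted reads per gene, equalized the counts between samples in Matlab and took the log2 after adding 1, so the deposited unit is log2. Tool versions other than that of Trimmomatic are not given in the sources used here. Sorted values are nearly identical between libraries (median spread 0.00284), as after quantile normalization, so total counts are lost. Depth was inferred from the steps between the lowest values of each library, and such counts cover counting error only. The human build hg38 is named in the supplementary methods, whereas the processing notes name GRCm38 and the table lists mouse symbols. Positions and exon lengths are those of GENCODE M21 on GRCm38.

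A gene was tested where 3 or more libraries reached a log2 value of 1 (17674 genes, with 10570 left untested). Group means were modelled in limma 3.58.1 (R 4.3.3) with a variance trend (8 residual and 7.23 prior degrees of freedom), p-values were two-sided with Benjamini-Hochberg adjustment over all tested genes, and 5 comparisons were made. Fold changes are on the log2(value + 1) scale, which understates those of low genes. The fit was tested on simulated data. Tables and figures were made in Python 3.11.15 (pandas 2.3.3, numpy 2.4.6, matplotlib 3.10.9). All members were named, with, from each pathway list, at most 4 called genes of smallest limma F-test p over the time points, and for each called member the 3 genes of highest Pearson r over the 12 libraries among genes with a mean log2 value of at least 5. The members and lists were chosen with earlier results of these data known. Alternatives covered the filter, scaling, pseudocount, low values, variance prior, replicate block, samples fitted, test, fold threshold and each library left out. Those for the pathway genes were chosen after seeing the data.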

Additional observations from a re-analysis of the deposited data

How the results depend on the processing

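Of 600 member differences recomputed under settings other than leaving out a library, 569 kept their direction and their side of the threshold, 17 lost the call, 13 gained it and 1 changed sign. Of 600 with 1 library left out, 574 kept both, 8 lost the call, 11 gained it and 7 changed sign. No called difference changed sign in either set. Both totals include differences that could not change. Leaving out a library outside the time points compared changes only the p-value. Of the other settings, only rescaling, the pseudocounts and raised low values change the difference itself. Without a fold threshold 6 members were called at D8 against D7 and 7 at D10 against D8, where 21.0% and 28.8% of all tested genes were called. With a fold threshold of 2 on the log2 scale, 1 was called at D10 against D8, 2 at D10 against D7 and 2 at D28 against D7, with 3.01%, 7.59% and 7.67% of all tested genes. Leaving out each library in turn gave 2 to 5 members called at D8 against D7, 2 to 5 at D10 against D8, 5 to 7 at D10 against D7, 6 to 8 at D28 against D10 and 6 at D28 against D7. The count of 5 at D8 against D7 came without D7 replicate 2 or D8 replicate 1, and that at D10 against D8 without D10 replicate 2. The differences that changed sign were near 0. Bmp5 at D10 against D7 was -0.013 after median-of-ratios rescaling and lay between -0.061 and 0.26 over the libraries left out, below 0 without D7 replicate 3, D10 replicate 2 or D10 replicate 3. Over the libraries left out, Bmp4 at D10 against D8 lay between -0.44 and 0.027 (above 0 without D8 replicate 1), Gdf6 at D8 against D7 between -1.02 and 0.10 (above 0 without D8 replicate 2), Bmp6 at D28 against D7 between -0.75 and 0.0041 (above 0 without D28 replicate 2), and Gdf10 at D28 against D10 between -0.12 and 0.31 (below 0 without D10 replicate 1). The cause was not tested. Median-of-ratios rescaling moved the median difference of all genes at D28 against D10 by 0.11, and 7 members were called there as before. The rise of Gdf6 from D8 to D10 was 0.91 with a pseudocount of 10, had an adjusted p of 0.11 when limma was fitted to those time points alone, and was not called by the study's own rule of unadjusted p-values. Its D7 to D10 difference was called when low values were raised to the 3-read level (adjusted p = 0.033), by the study's own rule and without D8 replicate 2 (adjusted p = 0.028). The fall of Bmp3 from D7 to D10 was -0.99 with a pseudocount of 10, and the Bmp6 difference at D8 against D7 was called at 1.00 with a pseudocount of 0.1. With the replicate number as a block, 3, 3, 6, 7 and 6 members were called, as without it, and no call changed. Libraries with equal replicate numbers did not deviate together (r between -0.06 and 0.07 over 18 pairs, against -0.07 and 0.09 over 36 pairs with different numbers). The numbers thus gave no sign of pairing, though this check cannot exclude that such libraries share an origin. For 65 called differences of 26 pathway genes, 22 of 780 recomputed with 1 library left out lost the call. Under the other settings 3 of 715 did, apart from the fold threshold of 2, under which 38 of 65 lost it. All 1495 outside that threshold kept their direction, but many of them could not change it, for the reasons given above. Depth limits Gdf6 before D28, where a value stands for at most 17 reads.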

Other observations

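Genes outside the set whose levels followed a member most closely over the 12 libraries are given here as a description, since the libraries of a time point share their condition. They were searched among about 12180 tested genes with a mean log2 value of at least 5. Bmp7 was followed by Ltbp4, which encodes a latent TGF-beta binding protein (r = 0.994), Kcnq5 (r = 0.989) and Ip6k3 (r = 0.987). Bmp2 was followed by Cd300lb (r = 0.981), Mocs3 (r = 0.972) and Col6a3, a chain of collagen VI (r = 0.970). Bmp8a was followed by Alx4, a limb and skull homeobox gene (r = 0.975), Nynrin (r = 0.975) and the Hippo pathway kinase gene Lats2 (r = 0.970). Bmp1 was followed by Clec11a, which encodes the bone growth factor osteolectin (r = 0.982), Fkbp9 (r = 0.981) and Golm1 (r = 0.977). Bmp4 was followed by Rgs3 (r = 0.979), Akap7 (r = 0.978) and the ephrin receptor gene Epha4 (r = 0.977). For Gdf6 the genes were Man1a (r = 0.968), Itga8 (r = 0.960) and Me3 (r = 0.959), for Gdf10 they were Praf2 (r = 0.978), Man2a1 (r = 0.964) and Rab30 (r = 0.960), and for Bmp3 they were Ctdspl (r = 0.950), Rnf144b (r = 0.949) and Mcoln2 (r = 0.947).

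Among the members themselves, Bmp7 and Gdf6 ran opposite to each other over the 12 libraries (r = -0.941), as did Bmp4 and Bmp7 (r = -0.879) and Bmp2 and Bmp8a (r = -0.873), while Bmp1 and Bmp8a ran together (r = 0.906). These 4 values were picked from 45 pairs after they were seen, and libraries of 1 time point lie close together, so they mostly restate the differences between time points.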
